A study of Mus musculus with 5 samples.

Results

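Alveolar fibroblasts are the mesenchymal cells of the gas-exchange region of the lung. They were taken here from single-cell RNA sequencing of dissociated whole lungs of mouse embryos at E18.5, shortly before birth. Their members were 582 cells, 2.99% of the 19491 cell barcodes kept after filtering, and the 5 libraries together held 50355 barcodes. A barcode was kept with at least 500 detected genes and at most 15% of its UMIs (unique molecular identifiers, each standing for 1 captured RNA molecule) from mitochondrial genes. It was then called an alveolar fibroblast when it carried a UMI of Tcf21 and of at least 2 of the 7 companion genes Wnt2, Npnt, Limch1, Slc27a6, Fgfr4, Vegfd and Col13a1. It could carry UMIs of at most 2 of the 5 adventitial fibroblast genes Mfap5, Dpt, Clec3b, Pi16 and Scara5. It carried none of Ptprc, Epcam or Cdh5, which mark immune, epithelial and endothelial cells, and not both proliferation genes Mki67 and Top2a.

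The members were therefore chosen by measured UMI counts of these genes. The study had 2 groups of embryos, 2 libraries from Zswim8+/- lungs (Het) and 3 from Zswim8-/- lungs (KO), with 1 embryo per library. All the embryos therefore carried a mutant Zswim8 allele, present in the whole embryo, and no wild-type group is analysed here. The lungs were digested with collagenase and red blood cells were lysed before the cells were loaded. The alveolar fibroblasts numbered 81 and 59 in the Het libraries and 166, 120 and 156 in the KO libraries, with median depths of 9258 to 10983 UMIs per cell. The kept barcodes of each library numbered 3129 to 4820, and no alveolar fibroblast barcode occurred in a second library. Xist UMIs placed KO1 and KO2 as female and Het1, Het2 and KO3 as male, so sex was not balanced between the groups.

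Alveolar fibroblasts support the alveolar epithelium and the capillaries through secreted growth factors. Before birth they belong, with myofibroblasts, to the mesenchyme that lays down elastin and collagen around the forming saccules. Elastic fibres form when tropoelastin, encoded by Eln, is deposited on a scaffold of fibrillin microfibrils and crosslinked by lysyl oxidases. ZSWIM8 is the substrate receptor of a Cullin-RING ubiquitin ligase that removes Argonaute proteins whose microRNA is paired with a trigger transcript. This destroys the microRNA, a process called target-directed microRNA degradation. MicroRNAs were not measured in these libraries.

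One of the microRNAs with a known trigger, miR-29b, is shown because its textbook targets are elastin, fibrillin and collagen mRNAs, the 2 groups in which the most listed genes changed here. Its trigger is the transcript Nrep. The mature sequence from the RefSeq annotation of GRCm38.p6 is given 5′ to 3′ with the seed, bases 2 to 8, in capitals. The 3 stretches of 30 bases are from the 3′ untranslated region of Eln (GRCm38, minus strand, GENCODE transcript ENSMUST00000015138.12), with the reverse complement of the seed, TGGTGCT, in capitals. They lie at chr5:134703729-134703758, chr5:134703482-134703511 and chr5:134703469-134703498, and the last 2 stretches overlap.
mmu-miR-29b-3p: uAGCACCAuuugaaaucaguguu
Eln first match: cgacctcatcaacgtTGGTGCTactgcttg
Eln second match: atctccaagggaaatTGGTGCTacatgttg
Eln last match: attggtgctacatgtTGGTGCTtcttcttt

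The genes of the rule are given to describe the cells. They stayed in the fits over all genes, and no result is read from their tests. Summed over the alveolar fibroblasts of each library and scaled to counts per 1000000 UMIs (CPM), Tcf21, a transcription factor of lung mesenchyme, stood at 634 and 520 CPM in the Het libraries and 415, 359 and 605 in the KO libraries. Wnt2, a Wnt ligand needed for lung growth, was at 56.5 and 48.4 CPM against 85.3, 67.0 and 76.7. Npnt, an integrin ligand of basement membranes, was at 235 and 239 CPM against 275, 276 and 267. Vegfd, a lymphangiogenic growth factor, was at 216 and 229 CPM against 211, 248 and 243. Limch1 lay between 480 and 730 CPM in the 5 libraries. Tcf21 and all 7 companions were detected in the summed cells of every library. Of the adventitial genes that the rule limits, Clec3b was at 132 and 158 CPM in Het and 32.5, 22.8 and 63.3 in KO, and Mfap5 at 172 and 101 CPM against 39.4, 55.3 and 39.2.

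The number of adventitial genes per cell differed between the groups and bears on every comparison below. In the Het libraries 55.6% and 49.2% of the alveolar fibroblasts carried 2 of the 5, the most the rule allows, against 27.7%, 24.2% and 34.0% in the KO libraries. Cells with none made up 23.5% and 15.3% in Het and 38.6%, 34.2% and 33.3% in KO. Just inside that limit, at 2 adventitial genes, lay 45 and 29 Het cells and 46, 29 and 53 KO cells, and just outside it, at 3, lay 41 and 37 Het and 38, 39 and 40 KO cells. Just inside the companion limit, at 2 companions, lay 28 and 19 Het and 30, 25 and 36 KO cells, and just outside, at 1, 29 and 30 Het and 36, 25 and 51 KO cells. The genes that the results turn on are therefore also given within cells of equal number of adventitial genes. The counted genes themselves differed between the groups. A Clec3b UMI was found in 45.7% and 52.5% of Het and 16.9%, 18.3% and 31.4% of KO alveolar fibroblasts. Mfap5 was also found less often in every KO library, and Scara5 more often. Het and KO cells of equal number can therefore carry different adventitial genes, and whether they were otherwise alike was not tested.

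Alveolar fibroblasts took a larger share of the kept barcodes in every KO library than in either Het library. The share was 1.68% and 1.40% in Het (95% exact binomial intervals 1.34% to 2.08% and 1.07% to 1.81%) and 5.31%, 3.61% and 3.89% in KO (4.55% to 6.15%, 3.00% to 4.30% and 3.31% to 4.53%). The intervals cover counting error only. The means were 1.54% ± 0.196 (SD, n = 2) and 4.27% ± 0.909 (SD, n = 3), a difference of 2.73 percentage points and a ratio of 2.77. The exact permutation test over the 10 arrangements of the libraries gave p = 0.1 (two-sided), the smallest value that 2 against 3 libraries can give. Among mesenchymal barcodes, kept barcodes with at least 10 UMIs of Col1a1, Col1a2 and Col3a1 together and none of Ptprc, Epcam or Cdh5, the share was 16.7% and 10.96% in Het and 22.3%, 23.3% and 21.04% in KO. The means were 13.8% ± 4.06 (SD, n = 2) and 22.2% ± 1.14 (SD, n = 3), a ratio of 1.61 with p = 0.1 by the exact permutation test. The groups did not overlap in either share.

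Without the adventitial limit of the rule both ratios and the difference in mesenchymal share were smaller. The limit removed 75 and 91 Het cells and 109, 69 and 119 KO cells that met every other condition. Without the limit the alveolar fibroblasts made up 30.3% ± 2.62 (SD, n = 2) of the mesenchymal barcodes in Het and 37.0% ± 0.298 (SD, n = 3) in KO, a ratio of 1.22. As a share of kept barcodes they were then 3.402% ± 0.234 (SD, n = 2) and 7.11% ± 1.57 (SD, n = 3), a ratio of 2.09 and a larger difference of 3.71 percentage points. Depth was evened out by thinning each kept barcode of at least 3000 UMIs to 3000 and leaving out shallower ones. This left 4210 of 4820 and 3782 of 4204 kept barcodes in Het, and 2539 of 3129, 3018 of 3324 and 3675 of 4014 in KO. The shares of mesenchymal barcodes were then 13.0% ± 2.81 (SD, n = 2) and 18.7% ± 1.89 (SD, n = 3). The exact permutation p stayed at 0.1 in each case. A share also rises when other cells are fewer, and cells lost in dissociation cannot be told apart from cells absent in the lung.

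**Figure D1:**
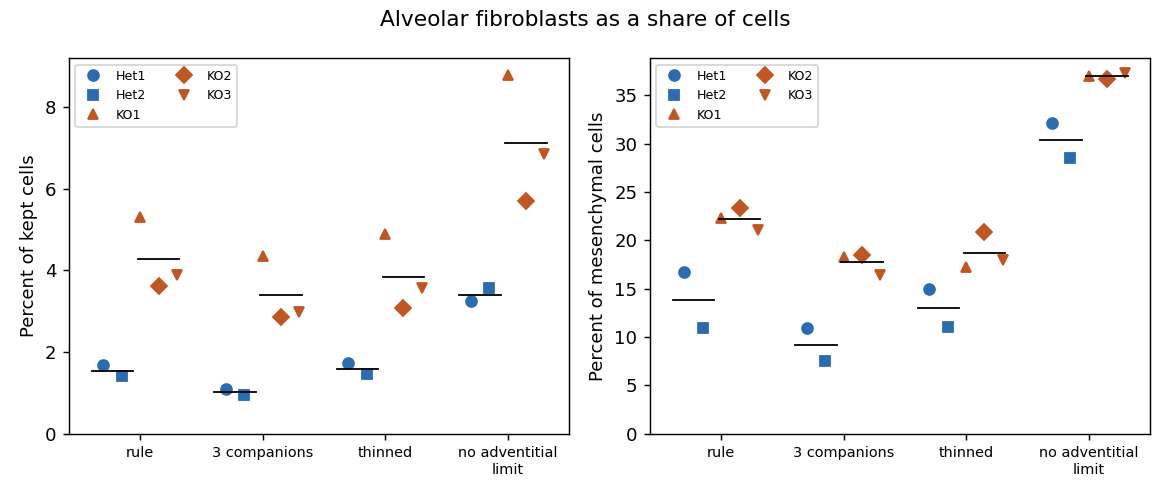
Alveolar fibroblasts as percent of kept barcodes (left) and of mesenchymal barcodes (right) by library, for the rule as given, for at least 3 companion genes, after thinning to 3000 UMIs and without the adventitial limit. Points are libraries and lines are group means, and in every column the 3 KO libraries lie above both Het libraries.

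Between Het and KO, 77 of the 9705 genes tested in the alveolar fibroblast sums differed at an adjusted p under 0.05 (0.793% of genes tested, edgeR quasi-likelihood test with Benjamini-Hochberg adjustment). Of these, 70 were lower in KO (0.721%) and 7 were higher (0.0721%), and in all 77 the 2 groups did not overlap. Before adjustment, 1179 genes had a p under 0.05. Separation by itself is common here: the Het and KO values did not overlap in 31.9% of all genes tested, and every KO value lay below every Het value in 16.0%. The median log2 change over all genes was 0.01. The lowered genes include Clec3b and Mfap5, which the rule itself uses and which are no result, and 4 haemoglobin genes. With embryo sex as a term in the edgeR fit no gene passed (753 at an unadjusted p under 0.05), and all 77 kept their direction. Leaving out 1 library gave between 31 calls, without Het1, and 91, without KO1, with 46 without Het2. Zswim8 was at 37.7 and 39.0 CPM in Het and 42.3, 44.8 and 45.6 in KO (log2 change 0.21, adjusted p = 0.734 by edgeR), so its 3′ counts do not separate the genotypes downward, and they say nothing of the protein.

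**Figure D2:**
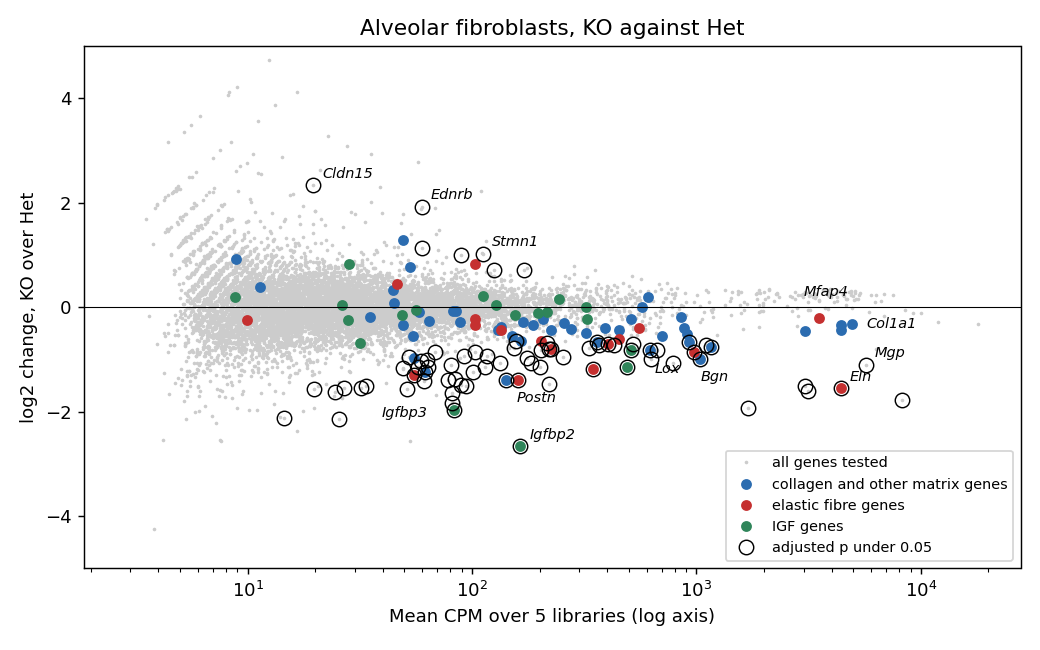
Log2 change of KO over Het for each gene tested in the summed alveolar fibroblasts against its mean CPM over the 5 libraries (log axis), with 3 gene lists in colour and the genes with an adjusted p under 0.05 circled. Most circles lie below 0, with Eln and Mgp at the right, and 12 genes lie outside the plotted range.

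Among the lists of pathways and functions, elastic fibre genes had the largest share of lowered members. Of the 17 tested of 19 listed, 7 were lower in KO and none was higher, 15 lay below 0 and the median log2 change was -0.61, beside 0.01 over all genes. Eln, the gene of tropoelastin (chr5:134702593-134747323, GRCm38, minus strand), was at 6756 and 7777 CPM in the Het libraries and at 2087, 2450 and 2892 in the KO libraries. Every KO library lay under the lower Het library. The log2 change was -1.55 (SE 0.14, 2.93-fold lower, adjusted p = 0.001 by edgeR). Per cell this was 66.4 and 84.5 UMIs of Eln in Het and 21.7, 31.4 and 34.5 in KO, against 0.06 to 0.13 per red-cell barcode, which reads RNA free in the droplets.

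The crosslinking enzyme and the microfibril genes followed with smaller sizes. Lox, a lysyl oxidase, was at 1404 and 1256 CPM in Het and 747, 693 and 768 in KO (log2 change -0.85, SE 0.11, adjusted p = 0.004). Fbn2, the fibrillin that prevails in the embryo, was at 496 and 553 CPM against 183, 263 and 243 (log2 change -1.19, adjusted p = 0.004). Fbn1, the other fibrillin, was at 563 and 484 CPM against 317, 324 and 326 (log2 change -0.70, adjusted p = 0.014). In each of these 3 genes both Het values lay above all KO values.

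Fbln5, which brings tropoelastin to microfibrils, was at 295 and 214 CPM in Het and 78.3, 87.8 and 123 in KO (log2 change -1.40, adjusted p = 0.005 by edgeR). Fbln1, a fibulin of elastic fibres and basement membranes, was at 324 and 276 CPM against 179, 154 and 187 (log2 change -0.79, adjusted p = 0.015). Adamtsl2, a fibrillin-binding protein, was at 79.1 and 92.1 CPM against 40.0, 25.4 and 38.1 (log2 change -1.29, adjusted p = 0.017). The list was not lowered throughout. Mfap4, a microfibril-associated protein, was at 4079 and 3539 CPM in Het and 3759, 2773 and 3345 in KO, so the groups overlapped (log2 change -0.21, adjusted p = 0.589). Mfap2 and Ltbp4, a microfibril glycoprotein and a TGF-beta binding protein, had log2 changes of -0.40 and -0.61 (adjusted p = 0.205 and 0.057).

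**Figure D3:**
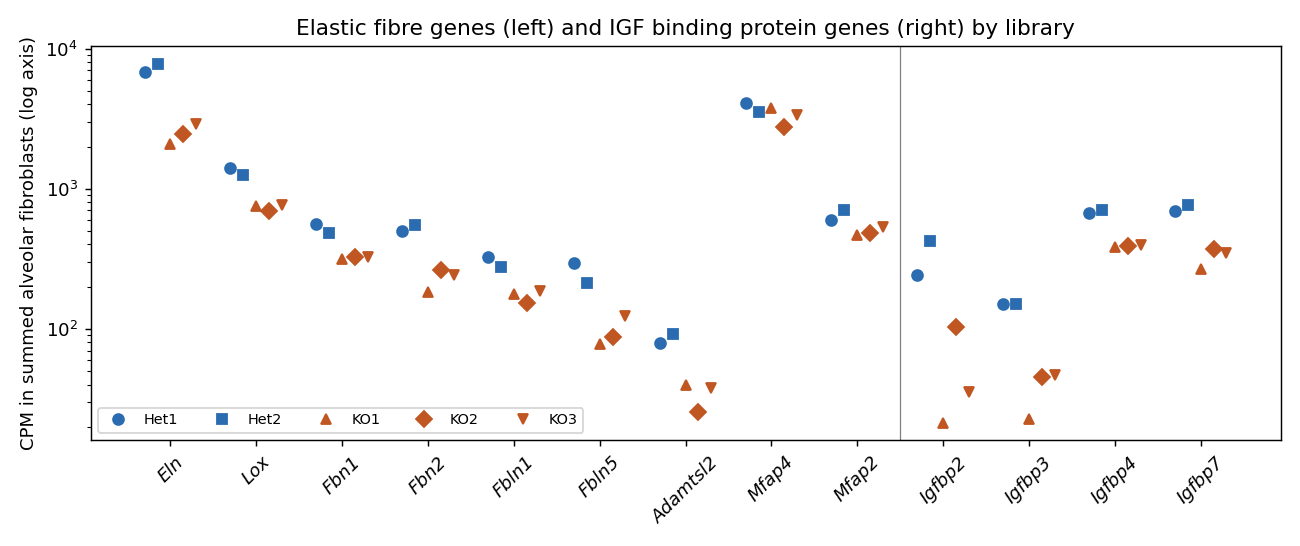
CPM (log axis) of elastic fibre genes and of IGF binding protein genes in the summed alveolar fibroblasts of each library. The KO libraries lie below both Het libraries in each gene shown except Mfap4, where the groups overlap.

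The elastic fibre genes were compared again among cells with the same number of adventitial genes. Eln passed the edgeR test in each stratum, with log2 changes of -1.31, -1.39 and -1.73 for 0, 1 and 2 adventitial genes (adjusted p = 0.004 each). In the cells with none, Eln was at 4913 and 4471 CPM in Het and 1536, 1682 and 2109 in KO. Lox did not keep its call there: with no adventitial gene it was at 776 and 475 CPM against 612, 475 and 539 (log2 change -0.12, adjusted p = 0.931), and with 2 it was at 1751 and 1491 against 817, 818 and 925 (log2 change -0.93, adjusted p = 0.019). Fbn2 passed among cells with 2 (log2 change -1.22, adjusted p = 0.019), with -0.89 and -0.94 among those with 0 and 1. Fbn1, Fbln1, Fbln5 and Adamtsl2 passed in no stratum, and Fbln1 had 0.23 among cells with none. The list medians were -0.41, -0.70 and -0.49 for 0, 1 and 2 adventitial genes, with 1 of 15, 1 of 16 and 3 of 16 members called. The Het strata are small, with 19 and 9 cells without an adventitial gene.

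Of the 7 elastic fibre genes, Eln and Fbn2 passed the test whichever library was left out. Without Het1, Lox, Fbln1 and Fbln5 missed it (adjusted p = 0.075, 0.247 and 0.120 by edgeR). Fbn1 missed it without Het1 or KO3 (0.233 and 0.054) and Adamtsl2 without Het1 or Het2 (0.092 and 0.138). In a fit with embryo sex as a term none of the 7 passed, and Eln kept a log2 change of -1.33 (adjusted p = 0.108). KO3, male like both Het libraries, had 2892 CPM of Eln, under both Het values. With cells carrying markers of mesothelium, cartilage, smooth muscle or pericytes left out, 10 of 17 list members were called lower and all 17 lay below 0. Over all genes 154 of the 8627 tested were then called lower. Many alveolar fibroblasts held at least 3 markers of an epithelial, endothelial, immune or mesothelial list. They were 59 of 81 and 33 of 59 in Het, and 129 of 166, 50 of 120 and 93 of 156 in KO. Without these cells Fbn1, Fbln1 and Adamtsl2 missed the test (adjusted p = 0.118, 0.187 and 0.088 by edgeR).

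**Figure D4:**
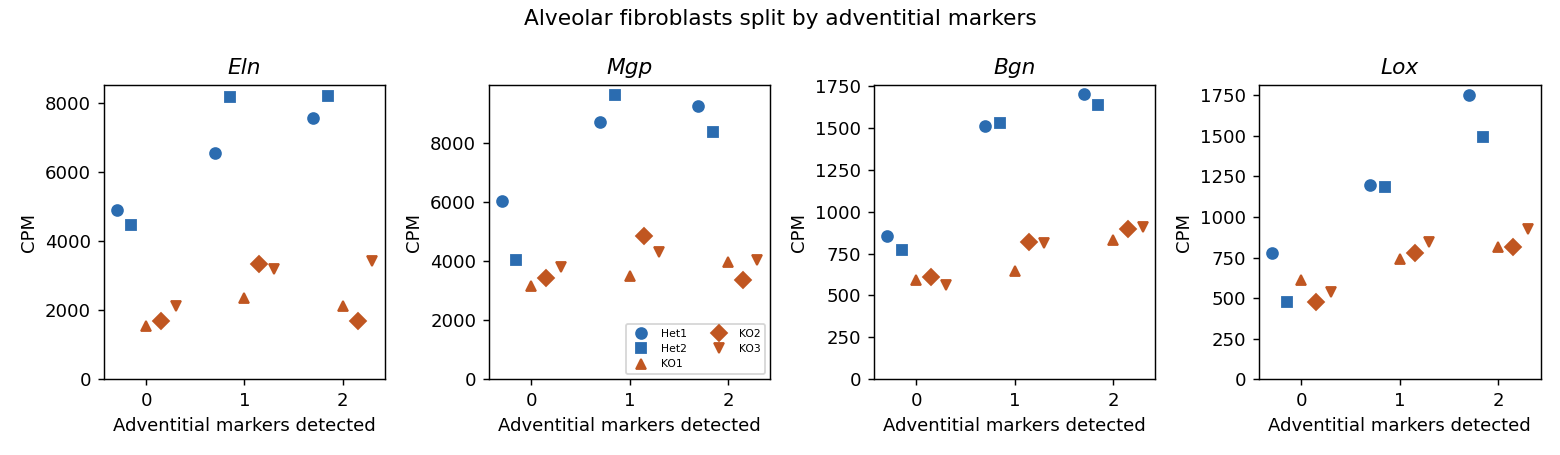
CPM of Eln, Mgp, Bgn and Lox in alveolar fibroblasts with 0, 1 or 2 adventitial genes detected, by library. The KO libraries lie below both Het libraries in every stratum for Eln and Bgn, while for Lox the groups overlap among cells with none.

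Collagens and other matrix genes, like the elastic fibre genes, had calls in 1 direction. Of 46 tested of 49, 7 were lower in KO and none higher, 38 lay below 0 and the median log2 change was -0.37. In 29 of the 46 every KO value lay below every Het value, beside 1548 of the 9705 genes tested (16.0%). Bgn, a small proteoglycan that binds collagen, was at 1462 and 1500 CPM in Het and 705, 768 and 760 in KO (log2 change -0.99, SE 0.10, adjusted p = 0.002 by edgeR). Fn1, fibronectin, was at 1673 and 1409 CPM against 959, 840 and 938 (log2 change -0.76, adjusted p = 0.011). Postn, a matricellular protein of remodelling tissue, was at 187 and 267 CPM against 80.0, 57.2 and 118 (log2 change -1.39, adjusted p = 0.025).

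Lama2, a laminin chain of mesenchymal basement membranes, was at 108 and 79.6 CPM in Het and 35.4, 40.3 and 44.0 in KO (log2 change -1.24, adjusted p = 0.010 by edgeR). Ogn, Col6a3 and Col5a1, a small proteoglycan and 2 collagen chains, were lower with log2 changes of -0.68, -0.82 and -0.67. The fibrillar collagens with the highest counts did not pass. Col1a1 was at 5365 and 5835 CPM in Het and 4478, 4203 and 4757 in KO (log2 change -0.32, adjusted p = 0.272), Col1a2 had a log2 change of -0.45 (adjusted p = 0.106) and Col3a1 one of -0.34 (adjusted p = 0.286). Sparc, a collagen-binding protein, had a log2 change of -0.47 (adjusted p = 0.154).

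Mgp, matrix Gla protein, an inhibitor of calcification and of BMP signalling, was outside the lists and is named after its values were seen. It was at 8420 and 8282 CPM in Het and 3656, 4039 and 3988 in KO (log2 change -1.10, SE 0.11, adjusted p = 0.001 by edgeR). Without an adventitial gene its log2 change was -0.46 (adjusted p = 0.373), and with 1 and 2 it was -1.20 and -1.22 (adjusted p = 0.004 and 0.006). Bgn likewise had -0.38 without an adventitial gene (adjusted p = 0.515), and -1.07 and -0.94 with 1 and 2 (adjusted p = 0.014 and 0.017). Bgn and Mgp passed whichever library was left out. Fn1 and Lama2 missed the test without Het1 (adjusted p = 0.222 and 0.219), Ogn, Col6a3 and Postn without Het1 or Het2, and Col5a1 passed only without KO1. Postn had a log2 change of -2.21 among cells with 1 adventitial gene and -0.50 among those with 2 (adjusted p = 0.003 and 0.700). Among cells with 2, Col6a3 and Lama2 passed too (log2 changes -1.04 and -1.31), while Fn1, Ogn and Col5a1 passed in no stratum. Fn1, Ogn, Postn and Lama2 missed the test when the cells with 3 or more markers of another lineage were left out (adjusted p = 0.095, 0.094, 0.178 and 0.381), and Ogn, Postn and Col5a1 when the adventitial limit was dropped.

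IGF binding proteins hold and carry the insulin-like growth factors, and 4 of them were lower in the KO cells. Of the 19 genes of the IGF list, all tested, these 4 were the only calls, and the median log2 change was -0.12. Igfbp3 was at 151 and 150 CPM in Het and 22.6, 45.5 and 47.2 in KO (log2 change -1.97, SE 0.25, adjusted p = 0.004 by edgeR). Igfbp2 was at 241 and 421 CPM against 21.5, 103 and 35.4 (log2 change -2.66, SE 0.44, adjusted p = 0.016), and both groups spread widely. Igfbp7 was at 692 and 762 CPM against 266, 371 and 349 (log2 change -1.14, adjusted p = 0.004).

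Igfbp4 was at 675 and 702 CPM in Het and 385, 392 and 397 in KO (log2 change -0.81, adjusted p = 0.004 by edgeR). Igfbp5 ranged from 136 to 501 CPM with the groups overlapping (log2 change -0.23, adjusted p = 0.876), and the growth factor gene Igf1 had a log2 change of -0.15 (adjusted p = 0.739). Igfbp3, Igfbp4 and Igfbp7 passed whichever library was left out, while Igfbp2 missed the test without Het2 or KO3 (adjusted p = 0.152 and 0.088). Among cells with 2 adventitial genes Igfbp3 had a log2 change of -1.85 (adjusted p = 0.027). Among those with 0 and 1 it had -3.19 and -1.25 (adjusted p = 0.297 and 0.394). Igfbp2 had -3.60, -0.53 and -4.24 for 0, 1 and 2 adventitial genes, with a call among cells with 2 and an adjusted p of 0.912 among those with 1. Igfbp7 had -1.36, -1.12 and -0.81 with no call (adjusted p = 0.087, 0.052 and 0.110). Igfbp4 had -0.29, -0.81 and -0.55 with no call (adjusted p = 0.740, 0.133 and 0.215), and it also missed the test without cells of mixed markers and without the adventitial limit (adjusted p = 0.098 and 0.119).

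Among signalling genes, Pdgfra, Ltbp2, Fgfr1 and Nrp1 were lower in KO, each the single call or 1 of 2 in its list. Pdgfra, the receptor of the PDGF-A ligand that epithelium makes, was at 202 and 208 CPM in Het and 113, 131 and 113 in KO (log2 change -0.79, SE 0.13, adjusted p = 0.013 by edgeR). After thinning to 5000 UMIs a Pdgfra UMI was found in 60.3% and 60.7% of Het alveolar fibroblasts and 39.6%, 40.5% and 42.7% of KO ones, against 0.688% to 1.23% of immune barcodes thinned alike. Before thinning these shares were 66.7% and 76.3% against 59.0%, 60.0% and 59.6%. Cells with fewer than 5000 UMIs were left out, which left 73 and 56 Het and 154, 116 and 150 KO alveolar fibroblasts, and the immune barcodes had medians of 12733 to 14372 UMIs.

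Fgfr1, an FGF receptor of mesenchyme, was at 144 and 114 CPM in Het and 55.7, 74.7 and 73.0 in KO (log2 change -0.94, adjusted p = 0.034 by edgeR). It was the only call among 19 FGF genes, where Fgf10, the ligand that drives epithelial budding, had a log2 change of 0.46 (adjusted p = 0.446). Nrp1, a co-receptor of VEGF and semaphorins, was at 274 and 222 CPM against 122, 130 and 129 (log2 change -0.97, adjusted p = 0.004). Ltbp2, a microfibril protein of the TGF-beta binding family, was at 122 and 145 CPM against 34.2, 55.3 and 63.3 (log2 change -1.38, adjusted p = 0.015). Pdgfra and Ltbp2 were the 2 calls among 44 hedgehog, PDGF, BMP and TGF-beta genes, whose median log2 change was -0.26. Pdgfra missed the test without Het1, Het2 or KO3, Fgfr1 in all omissions but that of KO2, Ltbp2 without Het1 or Het2, and Nrp1 without Het1. Without the cells of mixed markers Pdgfra, Fgfr1 and Nrp1 missed it (adjusted p = 0.178, 0.178 and 0.087 by edgeR). For 0, 1 and 2 adventitial genes the log2 changes were -0.87, -0.47 and -0.79 for Pdgfra, -0.57, -0.64 and -0.86 for Fgfr1 and -0.60, -0.93 and -0.99 for Nrp1, and none of these passed. Ltbp2 passed among cells with 2 (log2 change -1.81, adjusted p = 0.021).

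The genes higher in KO numbered 7. Ednrb, an endothelin receptor, was at 23.9 and 20.3 CPM in Het and 72.5, 103 and 79.4 in KO (log2 change 1.92, SE 0.25, 3.79-fold, adjusted p = 0.004 by edgeR). It passed whichever library was left out and was the only higher call among 23 vascular and niche signals. After thinning to 5000 UMIs an Ednrb UMI was found in 6.85% and 5.36% of Het and 16.9%, 20.7% and 21.3% of KO alveolar fibroblasts, and in 4.77% and 5.15% of Het and 12.1%, 10.2% and 11.7% of KO immune barcodes. The share was thus higher in KO in immune barcodes too, and what part this has in the call was not tested. For 0, 1 and 2 adventitial genes Ednrb had log2 changes of 2.24, 1.32 and 1.39, none of which passed, and it missed the test without cells of mixed markers (adjusted p = 0.270). Stmn1, a tubulin-binding protein of growing cells, was at 70.3 and 67.1 CPM against 133, 140 and 148 (log2 change 1.03, adjusted p = 0.006). Sox11, a transcription factor of embryonic mesenchyme, was at 44.0 and 25.0 CPM against 78.3, 74.1 and 78.3 (log2 change 1.13, adjusted p = 0.044). Cldn15, a claudin, was at 2.51 and 9.36 CPM against 30.2, 33.2 and 23.1 (log2 change 2.34, adjusted p = 0.041).

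Rgs10, Bambi and 1110038B12Rik had log2 changes of 0.99, 0.71 and 0.70 (adjusted p = 0.040, 0.045 and 0.028 by edgeR). Rgs10 regulates G-protein signalling and Bambi is a pseudoreceptor of the TGF-beta family. Next to the threshold, without passing, stood Krt19 at 1.87, Cdk4 at 0.68 and Mrpl30 at 0.62 (adjusted p = 0.054, 0.055 and 0.058). Stmn1 missed the test without Het1 or Het2, and Bambi missed it in each of the 5 omissions. Sox11 passed only without Het1 or KO2, 1110038B12Rik only without KO1 or KO2, Rgs10 only without KO1 and Cldn15 only without Het2. Krt19 also belongs to the mesothelial list. With cells carrying markers of other mesenchymal types left out its log2 change was 0.56 (adjusted p = 0.695), and that of Ednrb was 1.65 (adjusted p = 0.004).

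The genes with the largest falls beyond those above were of several kinds. Bst2, an interferon-induced membrane protein, was at 42.7 and 53.1 CPM in Het and 19.7, 5.85 and 6.44 in KO (log2 change -2.14, adjusted p = 0.045 by edgeR). Osr2, a zinc finger transcription factor, was at 30.1 and 53.1 CPM against 12.8, 13.0 and 13.95 (log2 change -1.62, adjusted p = 0.028). Htra1, a secreted serine protease, was at 84.2 and 85.8 CPM against 18.6, 44.9 and 23.1 (log2 change -1.58, adjusted p = 0.040). Cstdc5, Thbs3, Ms4a4d and C1s1 had log2 changes of -2.13, -1.56, -1.55 and -1.54. Among cells with 1 and 2 adventitial genes Htra1 had log2 changes of -0.14 and -2.72 (adjusted p = 0.982 and 0.002) and Osr2 -0.14 and -1.84 (adjusted p = 0.983 and 0.136). Each of these 7 genes missed the test in at least 2 of the 5 omissions.

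Most genes that mark alveolar fibroblasts without being in the rule did not pass the test between Het and KO. Of 28 tested of 30 such genes, 1 was lower and none was higher, and the median log2 change was -0.08. The call was Spon1, a secreted matrix protein, at 123 and 126 CPM in Het and 53.9, 37.1 and 50.4 in KO (log2 change -1.40, adjusted p = 0.004 by edgeR), and it passed whichever library was left out. Among cells with 0, 1 and 2 adventitial genes Spon1 had -1.81, -1.27 and -1.23, with a call among those with 2 (adjusted p = 0.028). Itga8, an integrin chain whose ligand is nephronectin, was at 108 and 92.1 CPM against 76.0, 63.1 and 77.3 (log2 change -0.47, adjusted p = 0.264). Gyg, which primes glycogen, was at 600 and 538 CPM against 684, 658 and 774 (log2 change 0.31, adjusted p = 0.322).

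Lipid storage is a trait of the lipofibroblasts within this population. None of the 25 lipid genes tested passed, and their median log2 change was 0.00. G0s2, an inhibitor of lipolysis, was at 657 and 691 CPM in Het and 911, 611 and 765 in KO (log2 change 0.18, adjusted p = 0.696 by edgeR). Plin2, the coat protein of lipid droplets, was at 104 and 82.7 CPM against 151, 123 and 150 (log2 change 0.59, adjusted p = 0.165). At an unadjusted p under 0.05, 4 of the 25 were higher and 2 lower, beside 1179 of the 9705 genes tested in either direction.

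No gene passed among 36 Wnt genes (median log2 change -0.23), 11 retinoic acid genes (0.06) or 35 lung mesenchymal transcription factors (-0.08). The same held for 27 G1 and S phase genes (-0.08) and 23 dissociation and stress response genes (-0.07). At an unadjusted p under 0.05 these lists held 12, 5, 11, 6 and 5 genes, beside 1179 of the 9705 genes tested. Fzd2, a Wnt receptor, had the values 139 and 109 CPM in Het and 85.3, 91.6 and 84.8 in KO (log2 change -0.52, adjusted p = 0.186 by edgeR). Among 19 glucocorticoid response genes the 1 call was Klf9, a transcription factor induced by glucocorticoids, at 249 and 300 CPM against 160, 153 and 154 (log2 change -0.81, adjusted p = 0.009), and it missed the test without Het2. Among 21 imprinted genes the 1 call was Zim1, at 82.9 and 64.0 CPM against 29.0, 31.2 and 38.1 (log2 change -1.17, adjusted p = 0.022), and it missed the test without Het1.

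None of the 24 tested genes of microRNA decay, its triggers, microRNA hosts and the ligase passed, and the median log2 change was -0.09. Of the 24, 6 had an unadjusted p under 0.05, beside 1179 of the 9705 genes tested. Nrep, the trigger of miR-29b, was at 286 and 345 CPM in Het and 331, 408 and 409 in KO (log2 change 0.28, adjusted p = 0.451 by edgeR). Plagl1, the trigger of miR-322 and an imprinted zinc finger gene, was at 618 in both Het libraries and 370, 518 and 492 in KO (log2 change -0.43, adjusted p = 0.257). Bcl2l11, Lrrc58 and Oip5os1 had log2 changes of 0.04, -0.23 and -0.22.

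Matches to microRNA seeds were counted in the longest annotated 3′ untranslated region of each tested gene, on the transcript strand. The miR-29b match TGGTGCT occurred in 16.5% of the 9423 regions (1555 genes), in 14 of the 70 lowered genes (20%), in 6 of the 17 elastic fibre genes (35.3%) and in 16 of the 46 other matrix genes (34.8%). Here and below, the 70 lowered genes include the rule genes Clec3b and Mfap5, which are no result, and 4 haemoglobin genes. Mfap5, with 2 matches, is among the 14. The 6 elastic fibre genes were Eln and Lox with 3 matches each, Fbn1 and Loxl2 with 2, and Fbn2 and Mfap2 with 1. Per 1000 bases of these regions there were 0.115 matches over all genes, 0.337 over the lowered, 0.536 over the elastic fibre and 0.426 over the other matrix genes. The median log2 change was -0.78 in the 6 elastic fibre genes with a match and -0.43 in the 11 without. Over other matrix genes the medians were -0.39 with and -0.34 without a match, and over all genes they were 0.00 and 0.01. Regions differ in length, with a median of 1244 bases over all tested genes, 820.5 over the lowered genes and 992 over the elastic fibre genes.

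Seeds of other microRNAs with known triggers were counted in the same way. The miR-7a match GTCTTCC was in 14.2% of all regions and 14.3% of those of lowered genes, and the miR-30c match TGTTTAC in 17.4% and 17.1%. The match ATGTAGC, shared by miR-221 and miR-222, was in 11.4% and 5.71%, the miR-322 match TGCTGCT in 25.7% and 21.4%, and the miR-503 match CGCTGCT in 5.12% and 1.43%. Within the elastic fibre list, genes with a match also had lower medians than those without for miR-7a (-0.72 in 4 genes and -0.43), miR-30c (-0.82 in 4 and -0.43), miR-322 (-1.30 in 3 and -0.52) and miR-503 (-0.85 in 1 and -0.52). For miR-221 the 1 gene with a match had -0.25, beside -0.63. These medians share genes. Lox held matches of miR-29b, miR-30c and miR-503, and Fbln5 held those of miR-7a, miR-30c and miR-322. The part of any of these microRNAs was not tested. These are counts of letters in annotated sequence, and neither pairing nor microRNA levels were measured.

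Markers of other cell types were read in the same sums. The erythroid list was lower in KO, with 4 haemoglobin genes called of 5 tested, and its summed level was 20308 and 35059 CPM in Het and 6761, 8779 and 9921 in KO. Hbb-bs was present at 108 and 192 UMIs per alveolar fibroblast in Het and 33.6, 55.7 and 59.9 in KO, against 1186 to 1347 per red-cell barcode, and red-cell barcodes held 21.4% and 15.6% of all UMIs in Het and 9.79%, 16.9% and 11.5% in KO. Of 12 epithelial genes only Scgb3a2, a secretoglobin of airway cells, passed, at 84.2 and 87.4 CPM against 45.8, 31.2 and 47.8 (log2 change -1.03, adjusted p = 0.046 by edgeR), at 0.400 to 0.949 UMIs per alveolar fibroblast and 0.284 to 0.814 per red-cell barcode. The part of free RNA in these 2 results was not tested.

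Of adventitial fibroblast genes outside the rule, 3 of 12 were lower and none higher, with a median log2 change of -0.58. The summed level was 7478 and 7110 CPM in Het and 6223, 5078 and 5667 in KO. A large part of each sum is Mfap4, whose Het and KO values overlapped and which is also a listed alveolar fibroblast gene. The sum therefore reads adventitial genes only in part. The 3 lowered genes are given next. These were Gsn (log2 change -1.06), Igfbp4 and Cd34 (log2 change -1.15), while Dcn, a proteoglycan that defines adventitial cells, had 0.01 (adjusted p = 0.991 by edgeR). Gsn passed whichever library was left out, and Cd34 only without KO1 or KO2. Of 9 myofibroblast genes 2 were lower, Pdgfra and Aspn (log2 change -0.96, adjusted p = 0.002), and the list's median was 0.46. Its summed level was 1559 and 1698 CPM in Het and 2125, 1566 and 1609 in KO.

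None of 7 smooth muscle, 11 pericyte, 7 mesothelial, 10 immune, 5 endothelial and 3 Schwann cell and chondrocyte genes passed the edgeR test. At an unadjusted p under 0.05 these lists held 2, 3, 4, 2, 2 and 3 genes, beside 1179 of the 9705 tested. Traces of these cells were unequal between libraries. The mesothelial list summed to 17.6 and 276 CPM in Het and 537, 608 and 306 in KO with all 7 members above 0 in log2 change, the smooth muscle list to 914 and 924 against 2191, 944 and 1061, and Col2a1, the cartilage collagen, was at 0 CPM in Het1, Het2 and KO2 and at 83.5 and 92.8 in KO1 and KO3. Upk3b, a defining mesothelial gene, was at 0 and 73.3 CPM against 153, 224 and 99.8. The pericyte list summed to 520 and 437 CPM against 667, 408 and 586, the immune list to 256 and 195 against 346, 123 and 175, and the endothelial list to 107 and 81.2 against 120, 103 and 104. Cells with several markers of mesothelium, cartilage, smooth muscle or pericytes made up 14.8% and 10.2% of Het and 15.1%, 12.5% and 14.1% of KO alveolar fibroblasts. With them left out, 184 genes passed the edgeR test, 154 lower and 30 higher in KO, and all 76 of the 77 calls that could be tested passed again.

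Alveolar fibroblasts were then set against adventitial fibroblasts, 834 cells with at least 3 of the 5 adventitial genes, in sums paired by library. Genes of either rule were left out of the counts. Of 10678 genes tested 22.5% differed, 1099 of them higher (10.3%) and 1306 lower (12.2%) in alveolar fibroblasts (edgeR quasi-likelihood test). The 5 largest higher genes were Col25a1, a membrane collagen (76.1 ± 39.4 CPM against 4.65 ± 3.90, SD, n = 5, log2 difference 4.01), Nebl (3.17), Sept4 (3.07), Car2, a carbonic anhydrase (2.98), and Actg2, smooth muscle actin (2.91). Actg2 rested on KO1, with 260 CPM there and 12.4 to 37.5 in the other 4 libraries. The 5 largest lower genes were Col5a3 (3.56 ± 0.920 against 95.3 ± 21.8 CPM, SD, n = 5, log2 difference -4.88), the transcription factor Ebf2 (-4.80), Cthrc1 (-3.55), Itih5 (-3.35) and Postn (-3.04).

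Alveolar fibroblast genes outside the rule separated the 2 types: 21 of 29 were higher and 4 lower in alveolar fibroblasts, with a median log2 difference of 0.84, beside 0.01 over all genes. Gyg (2.17), the transcription factor Tbx4 (2.09), Itga8 (1.76), Mfap4 (1.26) and Fgf10 (0.85) were among the higher ones. Of 14 adventitial genes outside the rule 11 were lower, Dcn by a log2 difference of -2.49 and Lum, a proteoglycan of collagen fibrils, by -2.80. Lipid genes were divided, with Plin2 (1.78) and G0s2 (1.74) among 6 higher and Lpl, lipoprotein lipase (-2.80), among 5 lower of 28. Of 18 elastic fibre genes Adamtsl2 (1.65), Mfap4 and Eln (0.60) were higher and 11 were lower, and of 23 imprinted genes 19 were lower, among them Dlk1 (-1.56) and Igf2 (-1.38).

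Against 451 myofibroblasts, cells with Tgfbi and at least 2 of 6 companions such as Hhip and Wnt5a but without Tcf21, 27.1% of 9449 genes differed. In alveolar fibroblasts 1291 were higher (13.7%) and 1273 lower (13.5%) by edgeR. With library size alone as the scaling the split was 816 higher and 2123 lower. Many of these myofibroblasts carried several markers of mesothelium, cartilage, smooth muscle or pericytes. They were 44 of 98 and 45 of 104 in Het, and 31 of 87, 36 of 66 and 46 of 96 in KO. Their part in the type differences and in the genotype by type terms was not tested. Agtr2, an angiotensin receptor, had the largest higher difference (143 ± 61.0 CPM against 1.11 ± 1.91, SD, n = 5, log2 difference 7.03), followed by the transcription factor Meox2 (94.7 ± 6.20 against 1.03 ± 0.816 CPM, SD, n = 5, log2 difference 6.41). Smim41 (5.96), Abca8a (5.81) and Hsd11b1, which regenerates active glucocorticoid (5.78), came next.

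Cyp2e1 was listed at 0 in the alveolar fibroblasts of every library, which over their 6623034 UMIs allows a level of up to 0.453 CPM, and was at 61.5 ± 40.9 CPM (SD, n = 5) in myofibroblasts. Crh, corticotropin-releasing hormone (log2 difference -5.57), Agt, angiotensinogen (-5.20), Cdh4 (-4.97) and Ccdc3 (-4.64) were the other 4 large lower genes. Of 28 alveolar fibroblast genes 18 were higher and 7 lower (median 1.57), with Fgf10 (5.25), Itga8 (5.03) and Spon1 (4.23) far above their myofibroblast levels and Tbx4 (-1.18) and Tbx5 (-1.65) below. Of 27 lipid genes 11 were higher, G0s2 by 4.27, and 3 lower. Averaged over Het and KO libraries, Eln did not pass the edgeR test (4697 ± 2849 CPM against 4632 ± 1237, SD, n = 5, adjusted p = 0.540). The average joins 2 genotypes between which Eln differed more in alveolar fibroblasts than in myofibroblasts, as given below. It therefore does not show equal Eln in the 2 types within a genotype.

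The genotype differences themselves were compared between the cell types with a genotype by cell type term. Against adventitial fibroblasts 19 genes passed (0.178% of 10678), 18 with the lower change in alveolar fibroblasts. Agtr2 was at 199 and 189 CPM in Het and 82.7, 85.1 and 106 in KO alveolar fibroblasts, but at 494 and 430 against 472, 574 and 706 in adventitial fibroblasts (term -1.42, SE 0.15, adjusted p = 0.006 by edgeR). Ptn, pleiotrophin, was at 565 and 788 CPM against 418, 377 and 437 in alveolar and 1516 and 1367 against 2099, 2529 and 2606 in adventitial fibroblasts (term -1.44, adjusted p = 0.017). Cxcl13, a chemokine of lymphoid tissue, was at 17.5 and 118 CPM against 35.3, 17.3 and 17.4 in alveolar and 13.9 and 65.7 against 111, 94.2 and 64.5 in adventitial fibroblasts (term -2.66, adjusted p = 0.006).

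Fbn2, Lox, Postn, Ogn, Igfbp4, Nrp1 and Plagl1 were among the 19. Lox was at 1352 and 1162 CPM in Het and 1044, 1123 and 1189 in KO adventitial fibroblasts, where the groups overlapped, and its term was -0.69 (adjusted p = 0.048 by edgeR). Eln and Mgp were not among them: Eln was at 4371 and 4277 CPM against 1417, 2013 and 1751 in adventitial fibroblasts (term -0.23, adjusted p = 0.783), and Mgp at 5255 and 4666 against 2565, 2728 and 2412 (term -0.16, adjusted p = 0.817). In both types every KO value of Eln and of Mgp lay below every Het value. The alveolar rule caps the adventitial genes and the adventitial rule requires them, so the 2 types were cut from one range, and the part of the cap in these terms was not tested. The count of 19 was 0 without Het1, 0 without Het2, 2 without KO3 and 101 without KO1.

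Against myofibroblasts 10 genes passed (0.106% of 9449). Lox was at 348 and 390 CPM in Het and 441, 386 and 460 in KO myofibroblasts (term -1.07, SE 0.13, adjusted p = 0.005 by edgeR). Col14a1, a collagen of fibril surfaces, was at 530 and 621 CPM against 384, 448 and 434 in alveolar fibroblasts and 172 and 191 against 309, 291 and 327 in myofibroblasts (term -1.22, adjusted p = 0.005). Krt19 was at 9.36 and 41.9 CPM against 75.6, 107 and 84.6 in alveolar fibroblasts and 157 and 269 against 139, 187 and 144 in myofibroblasts (term 2.32, adjusted p = 0.005). Eln was at 5947 and 5615 CPM against 4130, 2851 and 4616 in myofibroblasts, lower in all KO libraries but by less (term -0.95, adjusted p = 0.034).

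Igfbp2 (term -2.51), Igfbp7 (-1.15), Plagl1 (-1.05) and Tenm3 (-2.05) were the other lower terms, and Ednrb (1.61) and Pf4 (3.23) the other higher ones. Ednrb was at 697 and 749 CPM in Het and 885, 901 and 895 in KO myofibroblasts, far above its level in alveolar fibroblasts. Igfbp7 stayed between 158 and 183 CPM in the myofibroblasts of all 5 libraries. Without KO3 none of the terms passed, and without Het1, KO1 or KO2 the counts were 19, 16 and 16.

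**Figure D5:**
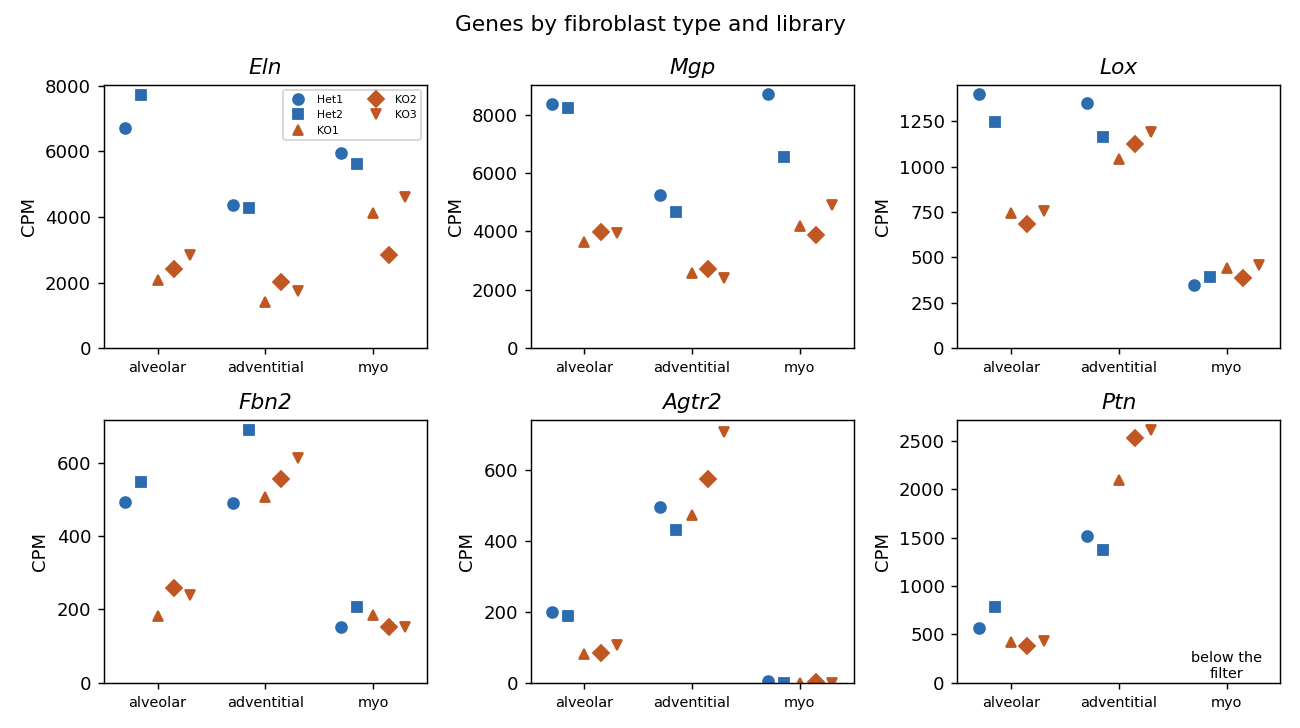
CPM of 6 genes by fibroblast type and library, with values scaled within the fits that compare the types. Eln and Mgp are lower in the KO libraries of all 3 types, while Lox, Fbn2, Agtr2 and Ptn are lower in KO alveolar fibroblasts and overlap or are higher in KO in adventitial fibroblasts.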

How the data were processed

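Lungs of 5 embryos, each its own library, were profiled with 10x Chromium 3′ chemistry, and the authors processed the reads with Cell Ranger 4.0.0 on mm10, per the submitters' processing notes. The files deposited by the authors hold UMI counts per gene and barcode, whole numbers for 32285 genes, not normalized. How their 50355 barcodes were selected is not given in the sources used here.

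Barcodes were filtered and gated as described above, and counts were summed over alveolar fibroblasts per library. Sums were tested with edgeR 4.0.16 in R 4.3.3 (TMM scaling, filterByExpr, quasi-likelihood F-test, Benjamini-Hochberg adjustment over all genes tested, threshold 0.05). Type comparisons were paired by library. DESeq2 1.42.0 was an alternative. Shares used exact permutation of the libraries. Intervals and the limit from 3 counts cover counting error only. Cell types were gated, not taken from an annotation, with Python 3.11.15 and numpy 2.4.6. Potential doublets were scored against simulated doublets at 0.8% per 1000 barcodes, which marked 3 of the 582 cells, and removed only in an alternative. Libraries held 56608582 to 93708304 UMIs.

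In simulated sums with 2-fold changes the Het against KO test recovered 42.7% of 185 changed genes among 9391, with 3 false calls. The genotype by cell type term against myofibroblasts recovered 18.18% of 198 among 9229, with 1 false call, so missed changes are common. The term against adventitial fibroblasts was not simulated. Samples were grouped by their titles, and p-values between Het and KO measure the spread between embryos. Those of the type comparisons and genotype by type terms measure the spread between embryos of the type difference within each library.

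The members and the 26 gene lists were chosen with earlier results of these data known. Named were the 10 largest changes per direction among genes that passed with groups that did not overlap and at least 10 CPM (filled to 10 by smallest p), passing list members and up to 4 abundant members per list, the rule genes and Zswim8, the 5 largest type differences per direction at 50 CPM or more, and the 3 smallest p-values per genotype by type term. Rule, sex-linked, haemoglobin and mitochondrial genes were left out of the ranking. Seeds were matched in GENCODE M21 (GRCm38) transcripts. Alternatives tried were scaling, filters, gates, leaving out libraries, embryo sex and the replicate block.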

Additional observations from a re-analysis of the deposited data

Results flagged for a closer look

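The genotype effect differed between cell types by the genotype by cell type term of edgeR for the 3 genes with the smallest p in each comparison. Against adventitial fibroblasts the log2 terms, KO over Het in alveolar fibroblasts minus the same in adventitial fibroblasts, were -1.42 for Agtr2, -2.66 for Cxcl13 and -1.44 for Ptn. Agtr2 and Ptn were lower in KO alveolar fibroblasts and had higher KO means in adventitial fibroblasts, so the terms joined values of opposite sign. Among alveolar fibroblasts with no adventitial gene, Agtr2 was at 39.8 and 17.6 CPM in Het and 30.7, 0 and 24.1 in KO (log2 change -0.55, adjusted p = 0.917 by edgeR). With the adventitial limit dropped, Ptn had a log2 change of 0.22 (adjusted p = 0.429 by edgeR). The part of the adventitial limit in both terms was not tested. Cxcl13 rested on low counts, with Het1 and Het2 far apart in both types. Against myofibroblasts the terms were -1.07 for Lox, -1.22 for Col14a1 and 2.32 for Krt19. Lox and Col14a1 had higher KO means in myofibroblasts and lower ones in alveolar fibroblasts, and Krt19 the reverse. Krt19 also belongs to the mesothelial list, which in alveolar fibroblasts summed to 17.6 and 276 CPM in Het and 537, 608 and 306 in KO. Cells with several mesothelial markers numbered 0 and 1 in Het and 2, 3 and 2 in KO alveolar fibroblasts. In myofibroblasts they numbered 4 and 7 against 7, 7 and 3. Their part in the Krt19 term was not tested. The number of genotype by type calls depended on single libraries, from 0 to 101 against adventitial fibroblasts and from 0 to 19 against myofibroblasts. No group held the 4 samples that a check for a library standing apart needs.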

How the results depend on the processing

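The shares kept their direction in every alternative run, with differences of 2.21 to 3.05 percentage points of kept and 5.53 to 11.3 of mesenchymal barcodes when 1 library was left out. The 77 calls between Het and KO became 395 without a low-count filter, 164 under stricter quality limits of 1000 genes and 10% mitochondrial UMIs, 122 with at least 3 companion genes and 48 with cells of mixed markers left out (4362 genes tested). They became 2, 13 and 26 in cells with 0, 1 and 2 adventitial genes (587, 582 and 500 at an unadjusted p under 0.05), which hold fewer cells, and 184 with cells of other mesenchymal types left out. With embryo sex as a term edgeR called 0 genes (753 at an unadjusted p under 0.05; DESeq2, without that term, called 100). All 77 main calls kept their direction there, and which of sex and the other differences between libraries moved the calls was not tested. Leaving out 1 library gave 31 (without Het1) to 91 (without KO1) calls. The strata by adventitial genes, the dropped adventitial limit and the set without other mesenchymal types were chosen after seeing the data. With the limit dropped, 48 of the 77 were called and 76 had the same direction.

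The replicate block gave 282 calls and kept all 77, but the samples share only a number (correlation of deviations 0.02 and 0.09 for the 2 shared numbers). Type calls became 1578 (adventitial) and 1355 (myofibroblasts) with mixed cells left out, and 1478 (without KO3) to 2212 against adventitial fibroblasts with 1 library left out. Genotype by type calls ranged from 0 to 101 and from 0 to 19 with 1 library left out, and those against myofibroblasts were 16 with library size alone and 2 without mixed cells. Reversed were Fbln1 (0.23) and Mfap4 (0.10) in cells with no adventitial gene, Col1a1 (0.090) in cells with 2, Ptn (0.22) with the limit dropped and Zswim8 (-0.19) without mixed cells. The cause was not tested. Eln was called in 20 of 21 alternatives, Bgn and Mgp in 19. Depth limits genes of a few UMIs per library, and the 81 and 59 Het cells limit all.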

Other observations

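Further lowered genes outside the lists are given as single values, named after these were seen. By edgeR the log2 changes were -0.996 for Ifitm1 and -0.73 for Ifitm3, membrane proteins induced by interferon, and -0.69 for B2m, the light chain of MHC class I, with adjusted p of 0.002, 0.007 and 0.033. Adamts2, a protease that trims procollagen, had -1.14 and Pcolce, an enhancer of procollagen processing, -0.81 (adjusted p = 0.002 and 0.006). Thbd, thrombomodulin, had -1.50 and Penk, proenkephalin, -1.15 (adjusted p = 0.005 and 0.003).

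After thinning to 5000 UMIs, an Itga8 UMI was found in 32.9% and 35.7% of Het and 32.5%, 33.6% and 31.3% of KO alveolar fibroblasts, and a Fgf10 UMI in 30.1% and 25.0% against 36.4%, 27.6% and 32.7%. Cells that met the rule but for both Mki67 and Top2a numbered 7 and 3 in Het and 4, 9 and 15 in KO. Cells that met it but for an immune, epithelial or endothelial gene numbered 53 and 48 in Het and 55, 50 and 94 in KO.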
